A study of Arabidopsis thaliana with 4 samples.

Results

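The genes described here are the clade III SWEET transporters of Arabidopsis thaliana, SWEET9 to SWEET15, which carry sucrose out of cells. They were chosen by gene symbol, with earlier results of these data known. Of the 7 genes, 5 had a probe set paired with that symbol alone (SWEET9, SWEET10, SWEET11, SWEET13 and SWEET14). In all, 13356 genes were so paired on arrays of 22746 probe sets. SWEET15 had a probe set under its older name, SAG29, and its values are given beside those of the 5 but not counted with them. SWEET12 is not listed in the pairing of probe sets with genes and was not analysed here. Whole 5-week-old plants, grown in hydroponics with 16 h of light, were measured on Affymetrix ATH1 arrays, whose probe sets (groups of short oligonucleotides) each give 1 signal for a transcript. RNA came from 2 wild-type samples, of the line the labels call La-er, and 2 samples of the mutant ago4-1, each called a biological replicate by its title. The labels give neither the line in which ago4-1 was grown nor how many plants went into a sample. AGO4, the gene mutated, is an Argonaute that guides DNA methylation with small interfering RNAs. Its own transcript was not analysed here, as the pairing does not name it, so the genotype labels were not checked against it.

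SWEET proteins are membrane carriers that let sugar move down its concentration gradient. The family is split into clades, and members of clade III mainly move sucrose, which they release to the outside of the cell. They act at the points where sugar leaves a tissue: the phloem of leaves, nectaries, anthers and the coats of seeds. Members of the other clades mostly carry hexoses, and those of clade IV sit in the vacuole membrane.

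The deposited signals had a median of 152 to 166 on the 4 arrays, and the replicates correlated across probe sets at r = 0.975 (wild type) and 0.970 (ago4-1), against 0.958 to 0.964 between the genotypes. As a sign of RNA quality, the GAPDH control gave ratios of 3′ over 5′ signal of 1.41 to 2.05 and the actin control gave higher ones of 7.99 to 11.3, with the genotypes overlapping in both. Of the 3 leaf markers 2 were paired, at log2 differences of -0.08 (RCA) and -0.05 (LHCB4.1). Differences below are ago4-1 minus wild type on the scale of log2(signal + 16), which understates the change of weak genes, and p-values come from limma with Benjamini-Hochberg adjustment over all 22746 probe sets and a threshold of 0.05. The number of arrays limits their precision: an exact two-sided permutation test of 2 against 2 arrays cannot go below 0.333.

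The comparison asks which transcripts differ in ago4-1, as part of a study of AGO4 in plant development. Signals of SWEET9, SWEET10, SWEET13 and SWEET14 were higher in both ago4-1 arrays than in both wild-type arrays, while those of SWEET11 overlapped between the genotypes. The differences of the 5 probe sets ran from -0.06 for SWEET11 to 2.11 for SWEET9, with a median of 0.65, against a median of -0.03 over all probe sets. Of the 5, 0 passed the adjusted threshold in limma, where 0.615% of all probe sets did, and 4 had an unadjusted p under 0.05 with ago4-1 higher, where 7.4% of all did. Both ago4-1 arrays lay above both wild-type arrays for 21.7% of all probe sets. As the genes were chosen with earlier results of these data known, these shares are descriptions and cannot serve as a test of the family. In RNA of whole plants, more cells of a type and more transcript per cell cannot be told apart.

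**Figure D1:**
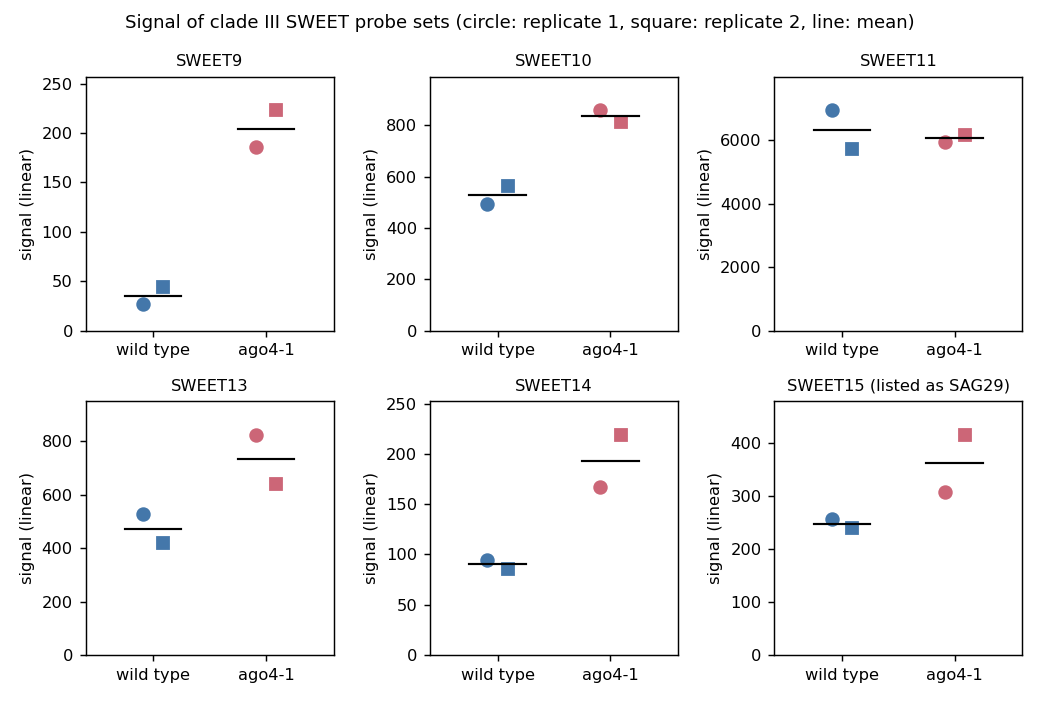
Signal of each clade III SWEET probe set on the linear scale (vertical axes from 0) in wild type (blue) and ago4-1 (red), with a circle for replicate 1, a square for replicate 2 and a line at the mean of 2 arrays. The ago4-1 points lie above the wild-type points in each panel except that of SWEET11, where the wild-type arrays, at 6950.5 and 5714, enclose those of ago4-1.

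SWEET9 is the transporter through which nectaries secrete sucrose into nectar, and its transcript is known for its nectary expression. Its signal was 26.6 and 44.3 in wild type, against 185 and 223 in ago4-1. The lower ago4-1 array thus stood 4.18 times above the higher wild-type array, and the means were 35.5 ± 12.5 and 204 ± 26.7 (SD, n = 2 each). The log2 difference was 2.11 (SE 0.34, 95% interval 1.29 to 2.93), a 4.33-fold difference of signal + 16, and 0.299% of all probe sets had a larger one. The difference exceeded the gaps between replicates, which were 0.50 log2 units in wild type against 0.25 in ago4-1. Over the 1000 probe sets of nearest mean signal the median gaps were 0.29 and 0.33, so the wild-type gap was wider than usual. With all probe sets in the test the limma adjusted p was 0.0678 (unadjusted 0.000677).

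The call of SWEET9 depended on the processing. When probe sets in the lowest 30% by mean signal over all arrays were left out, its limma adjusted p was 0.0100, where 4.06% of the probe sets left passed. SWEET9 entered that test through its ago4-1 arrays: its mean log2 signal over the wild-type arrays was 5.66, under the limit of 5.91, and over all 4 arrays it was 6.72. A gene that is weak in wild type enters such a test only when it is higher in ago4-1, so that call is not counted in its favour. Without any 1 of the 4 arrays the log2 difference stayed between 1.86 and 2.36, with limma adjusted p from 0.164 to 0.374.

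Only 1 marker of the nectary list could be read. Of 12 genes on it, 1 was paired with a probe set, JMT, a methyltransferase that makes methyl jasmonate and is known from nectaries among other tissues. JMT read 724 and 589 in wild type against 484 and 424 in ago4-1, a log2 difference of -0.51 (limma adjusted p = 0.218). As JMT is known from other tissues too, its signal in whole plants does not measure nectary content. The 7 floral organ identity genes had 0 probe sets paired by name, and the part of flower or nectary number in the SWEET9 signal was not tested.

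SWEET13 and SWEET14 are close relatives that act in anthers, where they supply sugar for pollen, and that also carry gibberellin. SWEET14 read 94.8 and 85.8 in wild type against 167 and 219 in ago4-1. Each mutant array was between 1.77 and 2.55 times each wild-type array, and the log2 difference was 0.97 (SE 0.28, 95% interval 0.29 to 1.64; limma adjusted p = 0.180). This was the largest difference of the 5 after that of SWEET9, with replicate gaps of 0.12 log2 units in wild type against 0.36 in ago4-1.

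SWEET13 read 528 and 419 in wild type against 826 and 641 in ago4-1. Its groups came nearer to each other, the lower mutant array being 1.21 times the higher wild-type array. The log2 difference was 0.61 (SE 0.19, 95% interval 0.16 to 1.07; limma adjusted p = 0.203). Replicates of SWEET13 were 0.32 and 0.36 log2 units apart in wild type and ago4-1, more than the median gaps of 0.14 and 0.20 over the 1000 probe sets of nearest mean signal. Replicate 1 gave the higher SWEET13 signal in both genotypes, whereas SWEET14 was higher in replicate 1 of wild type and in replicate 2 of ago4-1. The proteins are similar, and whether the probes of one gene also bind the transcript of the other was not tested. The names of the 6 probe sets end in plain _at, the ending Affymetrix gives to sets not flagged as shared between transcripts.

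Of the 10 genes of the anther and pollen list 2 were paired, and their summed signal was 1109.8 and 1265 in wild type against 2283 and 1760.0 in ago4-1. The tapetum gene A9 (AT5G07230) made up most of that sum, at 1044 and 1196 in wild type against 2250.4 and 1690.3 in ago4-1. Its log2 difference of 0.79 had a limma adjusted p of 0.108 with all probe sets tested and of 0.0402 with the weakest 30% left out. AMS, a regulator of the tapetum, overlapped between genotypes, at 65.5 and 69.2 against 33.0 and 69.7. The part of anther tissue in the signals of SWEET13 and SWEET14 was not tested.

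SWEET10 is known as a target of the floral inducer FT and is expressed in the shoot apex as plants begin to flower. It read 492 and 565 in wild type against 859 and 812 in ago4-1. The genotypes did not overlap, and the replicates were 0.19 log2 units apart in wild type and 0.08 in ago4-1, against median gaps of 0.14 and 0.20 over the 1000 probe sets of nearest mean signal. The means were 529 ± 51.5 and 835 ± 33.1 (SD, n = 2 each), and the log2 difference was 0.65 (SE 0.14, 95% interval 0.31 to 0.98; limma adjusted p = 0.112). SWEET10 and SWEET13 are neighbours on chromosome 5, with no annotated gene between them in RefSeq's table, and had similar differences of 0.65 and 0.61. Their replicates did not run in parallel in wild type, where replicate 2 was the higher array for SWEET10 and the lower one for SWEET13. In ago4-1 replicate 1 was the higher array for both.

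SWEET11 works with SWEET12 in leaves, where both release sucrose from phloem parenchyma for loading into the phloem. It read 6950.5 and 5714 in wild type against 5948 and 6173 in ago4-1. Both mutant values fell between the wild-type values. The log2 difference was -0.06 (SE 0.13, limma adjusted p = 0.877), with a 95% interval from -0.37 to 0.26. The upper bound for SWEET11 lay below the lower bounds of SWEET9 (1.29), SWEET10 (0.31) and SWEET14 (0.29) and above that of SWEET13 (0.16). A test of the differences between these genes was not made. Leaving out wild-type replicate 1 turned the sign, to 0.08. The phloem list could not be set beside SWEET11, as 0 of its 5 genes were paired by name.

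SWEET15, known from senescing leaves and from seed coats, read 256 and 239 in wild type against 306 and 415 in ago4-1. Both mutant arrays were above both wild-type arrays, but replicate 2 of ago4-1 was much the higher, and the replicate gap in the mutant was 0.42 log2 units against 0.09 in wild type. The log2 difference was 0.50 (SE 0.21, 95% interval -0.01 to 1.01; limma adjusted p = 0.324). Without ago4-1 replicate 2 it was 0.29, and without ago4-1 replicate 1 it was 0.71. Of the 12 genes of the leaf senescence list 3 were paired (WRKY53, WRKY6 and SAG101), and their summed signal overlapped between genotypes, at 288 and 526 in wild type against 300.0 and 631 in ago4-1. The seed list had 0 of 8 genes paired.

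**Figure D2:**
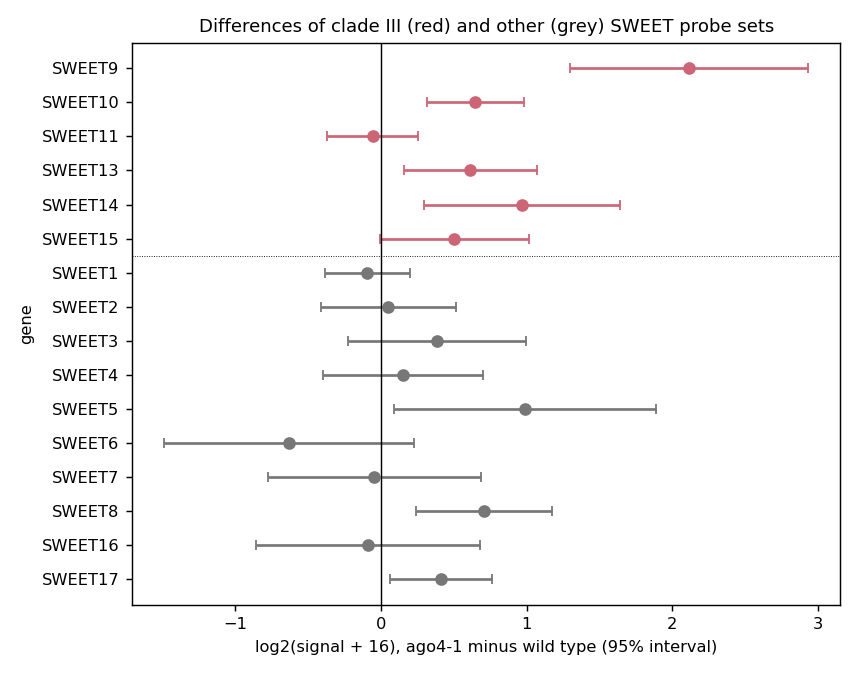
Log2 differences, ago4-1 minus wild type, on the scale of log2(signal + 16), with 95% intervals from limma (n = 2 arrays per genotype), for clade III (red) and the other SWEET genes (grey). The intervals of SWEET9, SWEET10, SWEET13 and SWEET14 lie above 0, as do those of SWEET5, SWEET8 and SWEET17, and that of SWEET11 spans 0.

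The other SWEET genes give the setting for these values. All 10 had a probe set, with SWEET5 under its older name AtVEX1. Of the 10, 0 passed the adjusted threshold in limma (0.615% of all probe sets did) and 3 had an unadjusted p under 0.05 (15.7% of all). For 3 of the 10 both mutant arrays lay above both wild-type arrays, a share near the 21.7% of all probe sets. Their differences ran from -0.63 to 0.99 with a median of 0.10. SWEET8, which feeds developing pollen, read 325 and 453 in wild type against 665 and 612 in ago4-1, a log2 difference of 0.71 (limma adjusted p = 0.163). SWEET5, expressed in the vegetative cell of pollen, read 38.2 and 53.3 in wild type against 132 and 84.1 in ago4-1, a difference of 0.99 (limma adjusted p = 0.276). SWEET17, a fructose carrier of the vacuole membrane, read 1554 and 1516 in wild type against 2327 and 1806 in ago4-1, a difference of 0.41. SWEET6 stood lower in both mutant arrays, at 61.2 and 60.9 against 40.3 and 28.0. Whether clade III differs from the other clades was not tested, and its median of 0.65 and theirs of 0.10 are descriptions.

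Few other genes of sucrose handling could be placed beside the exporters. The 13 lists of sugar genes and organ markers held 109 genes, of which 28 were paired. Of those 28, 0 passed the adjusted threshold in limma with all probe sets tested and 8 had an unadjusted p under 0.05, where 15.7% of all probe sets did. The sucrose importers of the SUC family, which reload what SWEET proteins release, had 0 of 9 paired. Of the 10 genes of sucrose synthesis and cleavage 1 was paired, the sucrose phosphate synthase SPS4F, at 1143 and 994 in wild type against 748 and 775 in ago4-1 (log2 difference -0.48, limma adjusted p = 0.160). Both mutant arrays were thus lower for this enzyme of sucrose synthesis.

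Of 8 invertases, which split sucrose, 2 were paired. The vacuolar invertase AT1G62660 read 575 and 487 in wild type against 410 and 391 in ago4-1 (log2 difference -0.39, limma adjusted p = 0.309). CWINV6, of the cell wall group, overlapped between the genotypes, with 1 high array: 63.4 and 126 in wild type against 65.6 and 434 in ago4-1. Of 14 hexose importers of the STP family 4 were paired. Of these STP8 (AT5G26250) was weak, at 11.5 and 7.46 in wild type against 24.3 and 24.4 in ago4-1, and STP5 (AT1G34580) was lower in both mutant arrays by a log2 difference of -0.31. STP10 (AT3G19940) and STP3 (AT5G61520) overlapped, at 0.20 and -0.15. The 3 root markers had a median of 0.20, with PYK10 at 0.25, EXPA7 at 0.20 and EXPA18 at -1.44. PYK10 and EXPA7 overlapped between genotypes, with replicates 0.96 to 1.26 log2 units apart. In both genotypes PYK10 was higher in replicate 1 and EXPA7 in replicate 2. EXPA18 was lower in both mutant arrays, at 98.1 and 76.9 in wild type against 49.5 and 6.13 in ago4-1. With such spreads the median says little about root content.

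SWEET9 and SWEET14, whose log2 signals spanned more than 1 unit over the 4 arrays, were set against all probe sets paired with 1 gene. Likeness was the root mean square distance between log2 values over 4 arrays, each gene centred on its own mean. The added 16 compresses weak genes, so a weak gene at a small distance can differ by a larger ratio of signals. The mean ago4-1 signal was 19.1 times that of wild type for AT5G07420 and 5.76 times for SWEET9. Wild-type signals of AT5G07420 were only 2.65 and 5.33, under the 44.0 at the limit of the 30th percentile filter. Its ratio is therefore uncertain. The 5 nearest to SWEET9 were AT2G04460, AT5G07420, AT1G65370, AT4G39670 and AT3G58210, at distances of 0.12 to 0.16 log2 units. All of these are higher in ago4-1 by the way they were picked, so their differences and p-values are no separate result. AT1G65370 was the brightest, at 183 and 237 in wild type against 986 and 1324 in ago4-1. It passed the threshold (log2 difference 2.37, limma adjusted p = 0.0163). AT2G04460, annotated as a pseudogene, read 9.99 and 18.7 against 101 and 152 (limma adjusted p = 0.0783).

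The genes nearest to SWEET14 were AT3G26730, AT1G51990, AT4G18580, AT4G34600 and AT2G28990, at distances of 0.03 to 0.06. AT3G26730 followed SWEET14 closely at a higher signal, with 234 and 203 in wild type against 381 and 499.8 in ago4-1. These sets rest on 4 arrays, over which many genes can share a pattern.

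**Figure D3:**
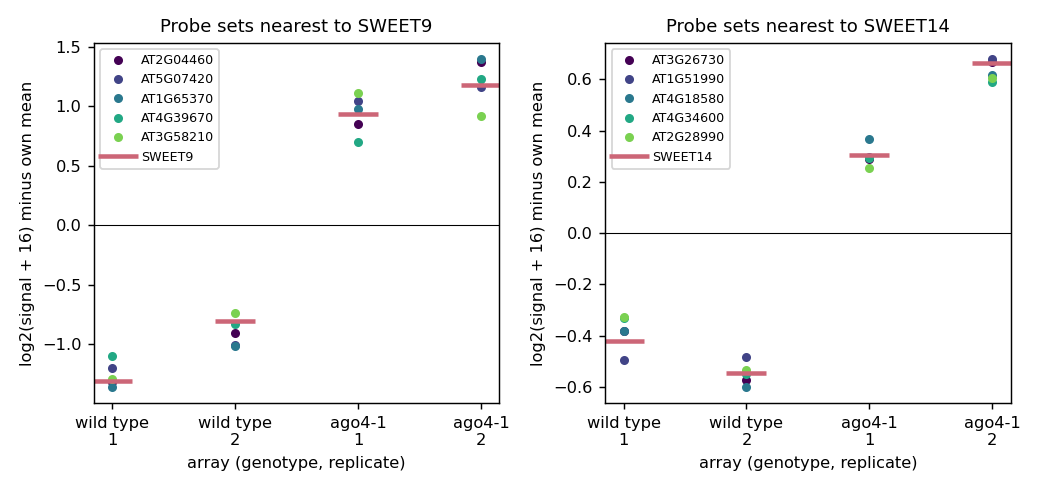
Log2(signal + 16) on each array (horizontal axis, genotype and replicate) minus the gene's own mean over the 4 arrays, for SWEET9 and SWEET14 (red bars) and the 5 probe sets nearest to each (dots). The dots of SWEET9's set lie within 0.16 log2 units of its bars on the root mean square, and those of SWEET14's set within 0.06.

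Across the 13 alternative ways of processing the data, SWEET10 and SWEET13 stayed above 0 in 13 settings each, and SWEET9 and SWEET14 in the 12 that kept them. These signs were largely fixed beforehand and are no separate support. The filters, the choice of variance model and the block leave the difference itself unchanged. Where the genotypes do not overlap, leaving out 1 array or changing the pseudocount cannot turn the sign. SWEET9 passed the adjusted threshold in 4 settings that tested all probe sets (median centring, a pseudocount of 1, robust moderation and the replicate block) and with the filter at the 30th percentile, which it entered only through its ago4-1 arrays. With a pseudocount of 64 its log2 difference was 1.43 (limma adjusted p = 0.0730). The threshold was passed by SWEET10 in 1 of 13 (the block), and by SWEET11, SWEET13 and SWEET14 in 0. In the settings where SWEET9 or SWEET10 passed, the share of all tested probe sets called was also higher, at 0.809% to 4.16% against 0.615% as reported.

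**Figure D4:**
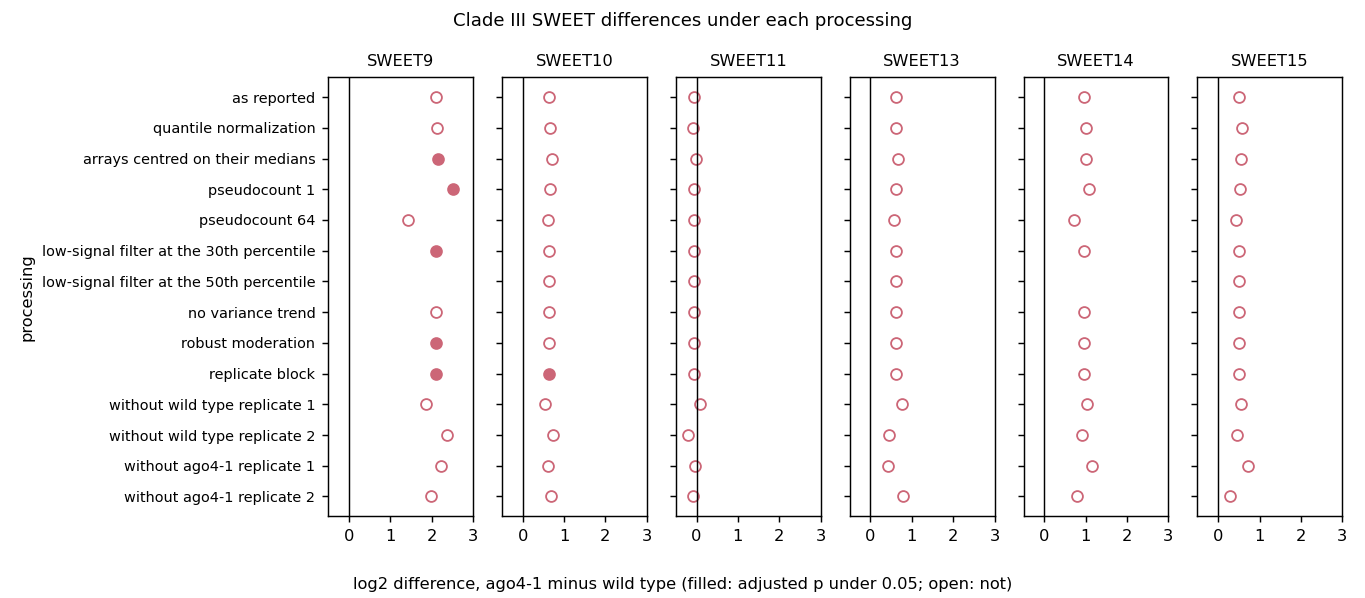
Log2 difference, ago4-1 minus wild type (horizontal axes), of each clade III SWEET gene under the reported processing and each of the 13 alternatives (rows), with filled circles where the limma adjusted p was under 0.05. SWEET9 has 5 filled circles and SWEET10 has 1, and a missing circle means that the filter left the gene out.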

How the data were processed

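Biotin-labelled total RNA of the 4 samples was put on ATH1 arrays, 1 array per sample, per the labels. Deposited were intensity values (a linear signal for each probe set) from GCOS, per the submitters' processing notes; for its settings, not given in the sources used here, nothing was assumed. Since the 2% trimmed mean was 500.1 on every array, the deposited intensity values were read as already scaled and were left so. No detection calls were used. Identical arrays were looked for, and 0 pairs were found.

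After removal of 64 control probe sets from 22810, 22746 were tested. The platform annotation gave 1 symbol for 13513, several for 503 (left unnamed) and did not list 8730. RefSeq's table of TAIR10.1 held the gene ID of 13436 and served for names and gene order only. limma 3.58.1 (R 4.3.3) compared the genotypes on log2(signal + 16) with a variance trend and no low-signal filter, with 2 residual degrees of freedom per probe set and 4.20 prior ones at the median. The procedure was run on simulated data with differences added only to probe sets above the 30th percentile of mean signal. That run does not cover a gene as weak in wild type as SWEET9. Deviations of arrays with the same replicate number were only weakly correlated across all probe sets (r = 0.069), and the numbers are not known to pair samples, so no block was used. This does not exclude a shared replicate effect on some genes. PYK10, EXPA7 and WRKY53 shifted the same way by replicate number in both genotypes, while others, such as SWEET14, did not.

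The genes named are the members, up to 4 genes a list by smallest p, the 5 probe sets nearest in pattern to each member spanning at least 1 log2 unit, and the closest paired gene on each side of a member. Members and lists were chosen with earlier results of these data known. The alternatives were quantile normalization, median centring, pseudocounts of 1 and 64, filters at the 30th and 50th percentile of mean signal, no variance trend, robust moderation, a replicate block, and the omission of each array in turn, where a lone array is taken to vary as the pair of the other genotype does.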

Additional observations from a re-analysis of the deposited data

How the results depend on the processing

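SWEET9 passed the threshold with arrays centred on their medians (log2 difference 2.16, limma adjusted p = 0.0491). It also passed with a pseudocount of 1 (2.53, 0.0487) and with robust moderation (2.11, 0.0364). These settings called 0.809%, 1.36% and 1% of all probe sets, against 0.615% as reported. With the filter at the 30th percentile it passed too (2.11, 0.0100), where 4.06% of the probe sets left did. It entered that test only through its ago4-1 arrays, so that call is not counted in its favour. In each of these settings 1 of the 5 clade III genes was called. With all probe sets and all 4 arrays, the limma adjusted p of SWEET9 ran from 0.0113 (replicate block) to 0.156 (no variance trend). With quantile normalization it was 0.0633. With the replicate number as a block 2 were called, SWEET9 (2.11, 0.0113) and SWEET10 (0.65, 0.0432), where 4.16% of all probe sets were. The numbers are not known to pair the samples. The filter at the 50th percentile left out SWEET9 and SWEET14. SWEET11 ran from -0.20 to 0.084 with 1 array left out, turning above 0 without wild-type replicate 1. The median of the other SWEET genes ran from -0.0060 (without wild-type replicate 2) to 0.27 (without ago4-1 replicate 2).

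Of all probe sets 140 were called, against 310 with a pseudocount of 1, 85 with 64, 647 and 501 with the filters at the 30th and 50th percentile, 0 with no variance trend (2993 at an unadjusted p under 0.05 in limma), 228 with robust moderation, 947 with the replicate block, and 0 to 4 with 1 array left out. The weak wild-type signal of SWEET9 limits its fold, which depends on the pseudocount: with 64 its log2 difference was 1.43, the lowest of its alternatives (limma adjusted p = 0.0730).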

Other observations

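Genes beside the clade III loci were read by the same rule, as the nearest paired gene on each side. Next to SWEET14, AT4G25020 read 62.2 and 60.9 in wild type against 115 and 119 in ago4-1 (log2 difference 0.78, limma adjusted p = 0.295), and AMY1 (AT4G25000), an amylase, overlapped between the genotypes. Beyond SWEET13, with 3 annotated genes between, AT5G50830 read 16.3 and 4.28 in wild type against 72.9 and 95.4 in ago4-1, a log2 difference of 1.96 (limma adjusted p = 0.103). On the other side of the SWEET10 and SWEET13 pair, AT5G50780 stood lower in both mutant arrays, at 79.1 and 105 against 27.2 and 53.6 (log2 difference -0.97, limma adjusted p = 0.312). The genes at both ends of this pair thus had differences of opposite sign, and neither passed the threshold.

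Beside SWEET9, the lectin gene EULS3 had a log2 difference of 0.40 and AT2G39100 of -0.14. Beside SWEET11, AT3G48710 stood at -0.17 and AT3G48760 at -0.03. Beside SWEET15, AT5G13200 read 270.1 and 338 in wild type against 457 and 630 in ago4-1 (log2 difference 0.80, limma adjusted p = 0.162), and AT5G13140 stood at 0.09.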
